A study of Mus musculus with 9 samples.

Results

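Meiotic prophase is the stage at which homologous chromosomes pair, break and recombine. The 44 genes described here encode the machinery of that stage and its regulators: synaptonemal complex and axis, meiotic cohesin, DNA break formation, break repair, crossover formation, telomere attachment, damage signalling and meiotic entry. They were listed by function, with no measured value in the rule but with earlier results of these data known, among 21779 protein-coding RefSeq genes on the standard chromosomes. An interval is a stretch of the genome that the authors listed as enriched over input, and it was assigned to a gene when it overlapped the RefSeq gene span with 2 kb added at either side by at least 1 bp. In the Gm4665 list 29 of 38711 intervals lay at these genes, and in the LacZ list 6 of 9448.

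The series asked which regulatory regions are bound by Gm4665, a long noncoding RNA, in germ cells of the testis. Germ cells of wild-type mice (strain ICR, postnatal day 35) were cross-linked, and chromatin was pulled down with biotinylated probes. There were 3 libraries titled LncRNA-20, which the protocol ties to Gm4665 probes, 3 titled LacZ and 3 of input. LacZ is a bacterial gene that mice lack, and probes against it are a common control for such captures, though the labels do not state that role. All 9 libraries share strain, genotype and age, and no label says whether replicates were separate animals or separate captures, so the spread between them may be technical. No RNA was measured, so neither the purity of the germ cells nor the expression of the genes could be checked here.

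In meiotic prophase, cohesin rings and axis proteins organise each chromosome into loops, and the synaptonemal complex zips the paired axes together. A topoisomerase-like enzyme makes programmed breaks, recombinases pair the broken ends with the homologous chromosome, and a subset of the repair intermediates become crossovers. Telomeres tethered to the nuclear envelope move the chromosomes during pairing, and in males a damage response silences the unpaired X and Y.

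The promoters of these genes are shown first, because regulatory regions are the stated interest of the series. RefSeq promoter windows of 300 bases (250 before the annotated start and 50 after it, build GRCm38.p6, the NCBI name of mm10) were listed for 37 of the 44 genes. No interval of either list overlapped a promoter window of these 37 genes. Among all 17492 protein-coding genes with a window, 1.76% had a Gm4665 interval over it and 0.8% a LacZ interval, so a count of 0 among 37 is near what the whole lists hold. The windows below are those of Rec114, which has the Gm4665 interval nearest to a start, Rnf8, which has the next nearest, Stag3, whose interval lay at the edge of its annotated span, and Hormad1, which had no interval and carries matches to 2 of the motifs described further on. Each is written 5′ to 3′ on the strand of the gene, and capitals mark matches to GGCGGGAA or GCGCATGCG on either strand.
Rec114, chr9:58741510-58741809 (-): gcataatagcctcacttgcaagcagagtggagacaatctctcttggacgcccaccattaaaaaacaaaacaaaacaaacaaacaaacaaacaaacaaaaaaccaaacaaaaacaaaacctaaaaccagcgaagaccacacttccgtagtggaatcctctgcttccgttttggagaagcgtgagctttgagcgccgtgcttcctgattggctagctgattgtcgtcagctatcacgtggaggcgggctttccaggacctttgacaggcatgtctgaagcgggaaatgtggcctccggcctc
Rnf8, chr17:29614539-29614838 (+): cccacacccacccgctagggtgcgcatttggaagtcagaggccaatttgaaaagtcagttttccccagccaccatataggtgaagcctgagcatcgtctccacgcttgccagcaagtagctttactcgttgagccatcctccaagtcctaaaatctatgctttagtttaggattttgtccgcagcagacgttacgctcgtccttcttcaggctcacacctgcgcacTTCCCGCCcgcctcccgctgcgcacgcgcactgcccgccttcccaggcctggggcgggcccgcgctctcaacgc
Stag3, chr5:138280259-138280558 (+): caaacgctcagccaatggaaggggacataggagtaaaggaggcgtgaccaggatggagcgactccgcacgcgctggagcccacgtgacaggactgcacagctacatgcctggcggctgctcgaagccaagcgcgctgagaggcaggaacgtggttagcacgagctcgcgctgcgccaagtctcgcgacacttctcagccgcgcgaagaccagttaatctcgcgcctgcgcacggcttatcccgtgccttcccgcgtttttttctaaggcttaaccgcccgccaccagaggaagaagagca
Hormad1, chr3:95559427-95559726 (+): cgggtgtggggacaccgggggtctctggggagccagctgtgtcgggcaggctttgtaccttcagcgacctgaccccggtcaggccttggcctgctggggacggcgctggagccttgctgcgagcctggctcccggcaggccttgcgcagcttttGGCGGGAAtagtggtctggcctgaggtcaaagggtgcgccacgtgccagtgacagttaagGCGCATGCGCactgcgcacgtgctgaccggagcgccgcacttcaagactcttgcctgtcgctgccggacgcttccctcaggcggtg

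Distances from these starts to the intervals were short at few genes. At Rec114, an interval from 58743515 to 58743961 on chromosome 9 lay 1.96 kb upstream of the start in the window above. At Rnf8, an interval began 2.70 kb downstream of the start. Meioc and Sycp1 had intervals 3.47 kb and 4.27 kb downstream, and a Gm4665 interval 4.70 kb upstream of Mdc1, outside the 2 kb flank, had a mean fold of 22.8. These 5 of 37 genes (13.5%) had a Gm4665 interval within 5 kb of a start, against 17.9% of all protein-coding genes with a window. Cdk2 was the 1 of 37 (2.70%) with a LacZ interval that close, 2.31 kb upstream, against 5.36% of all.

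Counted over the gene with its flanks, 16 of the 44 genes (36.4%) had a Gm4665 interval, against 39.3% of all protein-coding genes. LacZ intervals lay at 5 of 44 (11.4%), against 16.9%. Both shares are near or below those of all genes. They take no account of gene length, by which the shares are split in the next paragraph. The LacZ list is shorter than the Gm4665 list. Counting only the 9448 strongest Gm4665 intervals by mean fold, 6 of 44 genes (13.6%) had one, against 15.4% of all. Stag3 and Mei1 had intervals of both lists, 14 genes had Gm4665 intervals alone, and 25 had neither. Atr, Syce1 and Top6bl had LacZ intervals alone. The shares of all protein-coding genes with these combinations were not counted, so no comparison is drawn. None of the 29 Gm4665 intervals overlapped a LacZ interval, and the shortest gap, at Mei1, was 5.39 kb. Of all 38711 Gm4665 intervals, 344 overlapped a LacZ interval, so overlap was rare throughout the list.

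Long genes hold more intervals in any such list, and these genes are longer than most, with a median span of 31.9 kb against 17.2 kb for all protein-coding genes. Genes with a Gm4665 interval had a median span of 52.9 kb, and those without one had 23.8 kb. Below 20 kb, 2 of 13 genes had a Gm4665 interval (15.4%), against 19.1% of all protein-coding genes of that length. From 20 to 50 kb the count was 6 of 17 (35.3%), against 46.7%. From 50 to 100 kb it was 5 of 11 (45.5%), against 69.0%. All 3 genes of 100 kb and over, Sycp1, Rec114 and Mei4, had one, against 91.4%. For LacZ intervals the counts in the same order were 1 of 13, 1 of 17, 3 of 11 and 0 of 3, against 6.29%, 16.4%, 28.8% and 56.8%. Shares for Gm4665 were thus below those of all genes in 3 of the 4 length classes, on counts of 2 to 6 genes, and the difference was not tested. LacZ shares were also below those of all genes in every length class but the shortest, on counts of 0 to 3 genes. Lower shares were therefore not particular to the Gm4665 list. Gm4665 intervals numbered 12.4 per Mb of the 2.35 Mb searched (exact Poisson 95% interval 8.28 to 17.8, counting error only). Over all protein-coding genes there were 16.4 per Mb, and the difference was not tested. The Poisson range takes each listed interval as independent, although 7 genes held more than 1, so it may be too narrow. LacZ intervals numbered 2.56 per Mb (exact Poisson 95% interval 0.939 to 5.57), against 4.51 per Mb over all protein-coding genes. That difference was not tested either.

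**Figure D1:**
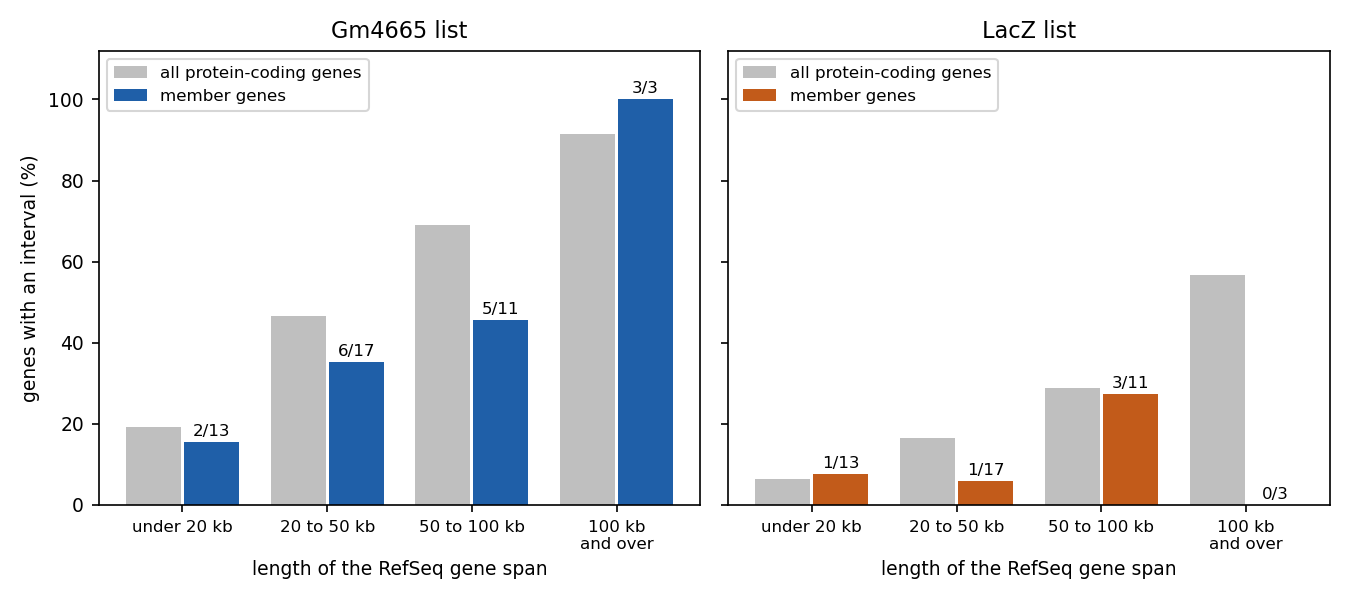
Share of genes with an interval over the gene span with 2 kb flanks, by length of the span (horizontal axis), for the Gm4665 list (left) and the LacZ list (right). Grey bars are all protein-coding genes, coloured bars the 44 meiotic genes with their counts above; among all genes the share rises with length in both lists, from 19.1% to 91.4% for Gm4665, while 0 of the 3 longest meiotic genes had a LacZ interval.

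The folds of the 29 Gm4665 intervals lay mostly near or below the middle of the list. Here a fold is the authors' linear enrichment over input at an interval, 1 value per replicate. The median over the 29 was 10.9, 8.09 and 8.63 in replicates 1, 2 and 3, against 11.4, 8.50 and 10.3 over the whole list. By mean fold, 8 of 29 intervals were in the upper 25% of the list, 2 in the upper 10% and 11 in the lower 25%. Replicate 1 was highest at 17 of 29, against 56.3% of all intervals. Replicates 2 and 3 were each highest at 6 of 29, against 9.6% and 34.1% of all intervals. The median coefficient of variation between replicates was 17.8%, against 21.9% over the list. The median width was 551 bp, against 582 bp. The 6 LacZ intervals also lay low in their own list, with a median mean fold of 8.97, against 14.1.

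**Figure D2:**
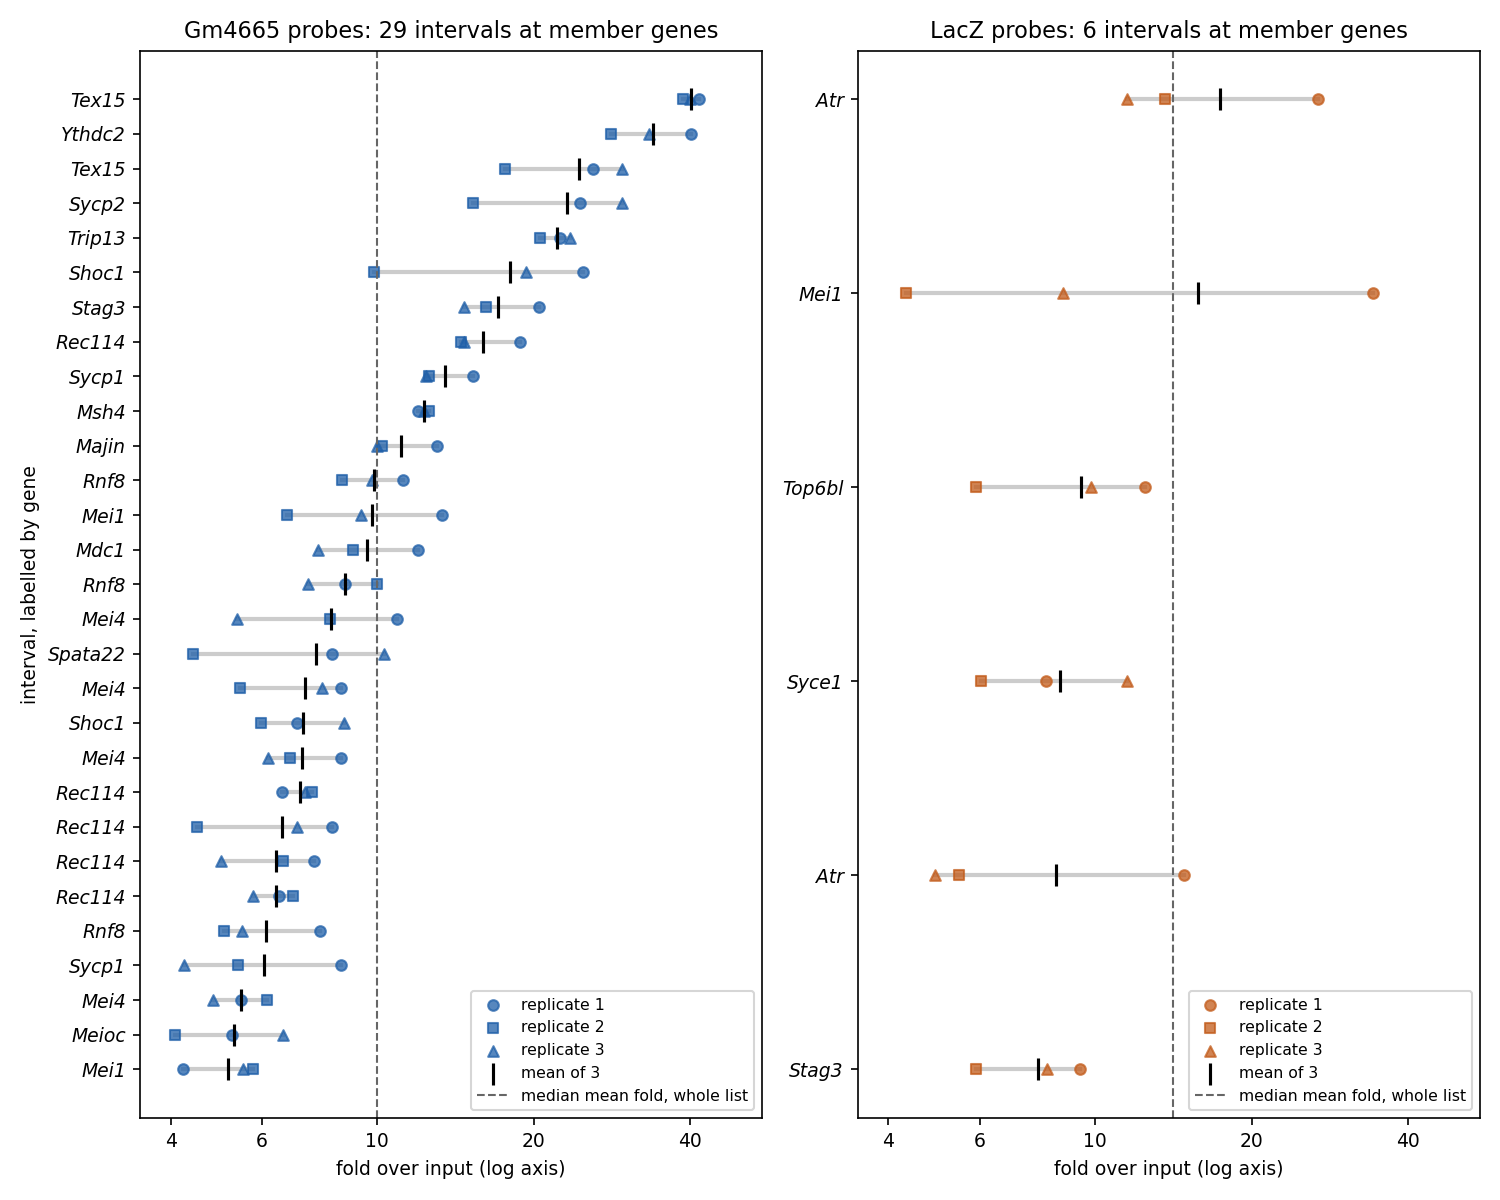
Fold over input (log axis) of each interval at the meiotic genes, 29 from the Gm4665 list (left) and 6 from the LacZ list (right), sorted by mean. Circles, squares and triangles are replicates 1, 2 and 3, black ticks their means, grey lines the range, and the dashed line the median mean fold of the whole list (9.99 and 14.1); Tex15 and Ythdc2 stand highest, and at Mei1 the LacZ replicates spread from 4.32 to 34.3.

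Counts by function rest on 4 to 9 genes each, beside a share of 39.3% of all protein-coding genes, and were not tested. Synaptonemal complex and axis genes had a Gm4665 interval at 2 of 9. Sycp2, which encodes a lateral element protein, had 1 interval near the middle of the gene, from 178378372 to 178379320 on chromosome 2. Its folds were 24.6, 15.3 and 29.6 in the 3 replicates (mean 23.2 ± 7.25, SD, n = 3), higher than 88.0% of the list by mean. Replicate 2 was the low one, and still above the list's median of 8.50 for that replicate.

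Sycp1, which encodes the transverse filament that joins the paired axes, had 2 intervals 97.3 kb apart. The one nearer the start, from 102931165 to 102931831 on chromosome 3, had folds of 15.3, 12.6 and 12.4 (mean 13.5 ± 1.64, SD, n = 3). The far one had 8.52, 5.39 and 4.24. The 3 values of the first lay above all 3 of the second, so these intervals of 1 gene differed by more than their spread.

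Syce1, a central element gene of 10.6 kb, had no Gm4665 interval and 1 LacZ interval beginning 100 bp inside its 3′ boundary, from 140777329 to 140777885 on chromosome 7. Its folds were 8.05, 6.04 and 11.5 with the LacZ probes, higher than 9.93% of that list by mean. No interval of either list lay at Sycp3, which encodes the other main lateral element protein, at the central element genes Syce2, Syce3 and Tex12, or at Hormad1 and Hormad2, whose HORMA-domain proteins mark unpaired axes. Hormad2 is 95.4 kb long; its nearest Gm4665 interval lay 23575 bp away, at a mean fold of 46.1.

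Of the 4 meiotic cohesin genes, Stag3 had a Gm4665 interval. Stag3 encodes the meiosis-specific STAG subunit of the ring. The interval ran from 138272454 to 138273442 on chromosome 5, across the lower boundary of the Stag3 span (138272514 to 138312397). Its folds were 20.5, 16.2 and 14.7 (mean 17.1 ± 3.01, SD, n = 3), higher than 77.9% of the list. This boundary is not the start used for the promoter window: that start lay 7995 bp farther in, and the interval ended 7.07 kb upstream of it. The interval overlapped the higher end of Gal3st4 (138264918 to 138273057), a sulfotransferase gene, and lay within 2 kb of the 3′ end of Gpc2 (138273657 to 138280026), a glypican gene on the opposite strand. It can therefore not be assigned to Stag3 alone.

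A LacZ interval also lay inside Stag3, 25.7 kb from the Gm4665 interval. Its folds were 9.36, 5.91 and 8.07 with the LacZ probes, higher than 6.20% of that list. Rec8 and Rad21l, which encode the meiotic kleisins that close the ring, and Smc1b, which encodes its meiotic SMC subunit, had no interval. Smc1b is 67.3 kb long, and its nearest Gm4665 interval lay 25349 bp away.

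Break formation genes had the largest count of any function, with 11 of the 29 intervals at 3 of 7 genes. They also had the largest total span, 707.8 kb of the 2170.2 kb of all 44 genes. Spo11 encodes the catalytic subunit, Top6bl its partner, Prdm9 the methyltransferase that places hotspots, and Rec114, Mei4, Iho1 and Mei1 proteins that the cut requires. Rec114 and Mei4 together had 9 of the 11, and they are the 2 longest of the 44 genes, at 169.9 kb and 342.3 kb.

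Rec114 had 5 Gm4665 intervals. The strongest, from 58673326 to 58674151 on chromosome 9, had folds of 18.8, 14.5 and 14.7 (mean 16.0 ± 2.44, SD, n = 3), higher than 75.2% of the list. The other 4 had mean folds of 6.37 to 7.09, all in the lower 25% of the list. All 3 replicates of the strongest exceeded all 12 values of the others, which reached 8.18 at most. Only the strongest lay downstream of the start listed for the promoter window; the others lay 1.96 kb to 62.0 kb upstream of it, inside a RefSeq span that begins 81147 bp before that start.

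Mei4 had 4 Gm4665 intervals, between 147.8 kb and 201.6 kb from its start. The strongest by mean, from 82062251 to 82063057 on chromosome 9, had folds of 10.9, 8.09 and 5.38 (mean 8.13 ± 2.77, SD, n = 3). The mean folds of the others ranged from 5.47 to 7.26. The replicates of the strongest overlapped those of each of the others, so its lead was not larger than the spread. Gaps of 9.36 kb and 2.23 kb separated the 3 intervals farthest from the start. No LacZ interval lay at Mei4 or Rec114.

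Mei1 had intervals of both lists. Its stronger Gm4665 interval, from 82104514 to 82105162 on chromosome 15, had folds of 13.3, 6.69 and 9.32 (mean 9.76 ± 3.32, SD, n = 3). Its weaker one had 4.22, 5.77 and 5.52, higher than 2.98% of the list and the lowest mean of the 29. The LacZ interval, from 82110554 to 82111586, had folds of 34.3, 4.32 and 8.69 in the LacZ replicates. Replicate 1 was the high one: these values exceeded 77.3%, 2.10% and 33.9% of the LacZ list in their replicates, and the coefficient of variation was 103%.

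At Top6bl (RefSeq symbol Gm960), a LacZ interval had folds of 12.5, 5.91 and 9.80. Spo11, Iho1 and Prdm9 had no interval of either list.

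Among the 5 genes of break repair and strand exchange, Tex15 and Spata22 had Gm4665 intervals. Tex15 encodes a large germ cell protein needed for meiotic break repair, and it held the strongest interval of the 44 genes. From 33552062 to 33553864 on chromosome 8, the folds were 41.6, 38.8 and 39.9 (mean 40.1 ± 1.42, SD, n = 3), higher than 97.4% of the list. The replicates differed by 1.07-fold from highest to lowest. A second interval 3.43 kb away, from 33546508 to 33548632, had folds of 26, 17.6 and 29.6 (mean 24.4 ± 6.18, SD, n = 3). The 2 sets of replicates did not overlap. At 1803 and 2125 bp these were the widest of the 29 intervals. They lay near the middle of the 75.8 kb gene, whose strand is not in the table used, and no LacZ interval lay at Tex15.

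Spata22 encodes a partner of the single-strand-binding protein made from Meiob. Its interval, from 73348356 to 73348882 on chromosome 11, lay past the 3′ end, also within 2 kb of the upstream side of the olfactory receptor gene Olfr20. The folds were 8.18, 4.42 and 10.3 (mean 7.63 ± 2.97, SD, n = 3), higher than 29.5% of the list. Dmc1, which encodes the meiotic recombinase, Brca2, whose protein loads it, and Meiob had no interval of either list. Brca2 spans 47.9 kb, and its nearest Gm4665 interval lay 39504 bp away, at a mean fold of 15.2.

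Crossover genes had a Gm4665 interval at 2 of 7 and no LacZ interval. Msh4, which with Msh5 encodes a clamp that stabilises recombination intermediates, had an interval from 153882315 to 153883024 on chromosome 3, near the middle of the gene. Its folds were 12.0, 12.6 and 12.3 (mean 12.3 ± 0.284, SD, n = 3), the smallest relative spread of the 29, at 2.30%.

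Shoc1, a crossover factor related to structure-specific nucleases, had an interval inside the gene, from 59098295 to 59098887 on chromosome 4. Its folds were 24.9, 9.86 and 19.3 (mean 18 ± 7.60, SD, n = 3), the largest relative spread of the 29, at 42.1%. A second interval lay in the flank, inside the neighbouring gene Gng10 (59035156 to 59041899), a G protein subunit gene, with folds of 7.01, 5.96 and 8.63. Msh5, Mlh3, whose protein resolves crossovers, Hfm1, a helicase gene, and the ligase-like genes Rnf212 and Ccnb1ip1 had none. Hfm1 is 86.5 kb long and its nearest Gm4665 interval lay 37369 bp away. At Mlh3, an interval with a mean fold of 7.69 lay 2292 bp from the span, just outside the flank.

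Of the telomere attachment genes, Majin had an interval. Majin encodes the membrane anchor of the complex that it forms with the products of Terb1 and Terb2 at the nuclear envelope. From 6191866 to 6192256 on chromosome 19, the folds were 13.0, 10.2 and 10 (mean 11.1 ± 1.65, SD, n = 3), higher than 56.6% of the list. Terb1, Terb2 and Cdk2, a kinase gene whose product sits at meiotic telomeres, had no interval. Terb1 spans 63.2 kb, and its nearest Gm4665 interval lay 5137 bp away, at a mean fold of 13.7.

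Damage signalling genes had a Gm4665 interval at 3 of 4, too few genes to set against the 39.3% of all protein-coding genes. Trip13, counted in this group, encodes the ATPase that removes HORMA-domain proteins from paired axes. By that role it could also be counted with the axis genes, which would change both counts. Its interval, from 73918597 to 73919578 on chromosome 13, had folds of 22.5, 20.6 and 23.5 (mean 22.2 ± 1.45, SD, n = 3), higher than 86.8% of the list. Rnf8, a ubiquitin ligase gene of 26.9 kb, had 3 intervals. The strongest, from 29630495 to 29630934 on chromosome 17, had folds of 11.2, 8.55 and 9.77 (mean 9.85 ± 1.35, SD, n = 3). The others had mean folds of 6.11 and 8.66, and the replicates of the interval at 8.66 overlapped those of the strongest.

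Mdc1 encodes the adaptor that spreads the damage mark over the X and Y chromosomes. Its interval, from 35850689 to 35851038 on chromosome 17, lay near the middle of the gene, with folds of 12.0, 8.97 and 7.69 (mean 9.56 ± 2.22, SD, n = 3). Atr, the gene of the kinase that leads this silencing, had no Gm4665 interval over 95.6 kb, and 2 LacZ intervals 10.3 kb apart. The stronger, from 95922514 to 95923475 on chromosome 9, had folds of 26.9, 13.6 and 11.5 with the LacZ probes (mean 17.4 ± 8.33, SD, n = 3), and the weaker had 14.8, 5.46 and 4.92. Replicate 1 was highest at both, as at 95.9% of the LacZ list.

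Of the genes of meiotic entry and progression, Ythdc2 and Meioc had intervals. Their products form an RNA-binding complex that lets germ cells leave the mitotic programme. Ythdc2 had the second highest mean of the 29. From 44863217 to 44864020 on chromosome 18, the folds were 40.2, 28.2 and 33.3 (mean 33.9 ± 6.03, SD, n = 3), higher than 95.5% of the list. It was lower than the strongest Tex15 interval in each of the 3 replicates, although its replicate 1 lay within the range of the Tex15 values. Meioc had folds of 5.24, 4.08 and 6.58 (mean 5.30 ± 1.25, SD, n = 3), higher than 3.79% of the list. Hspa2, a chaperone gene of spermatocytes, and Ccna1, a cyclin gene of male meiosis, had none.

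**Figure D3:**
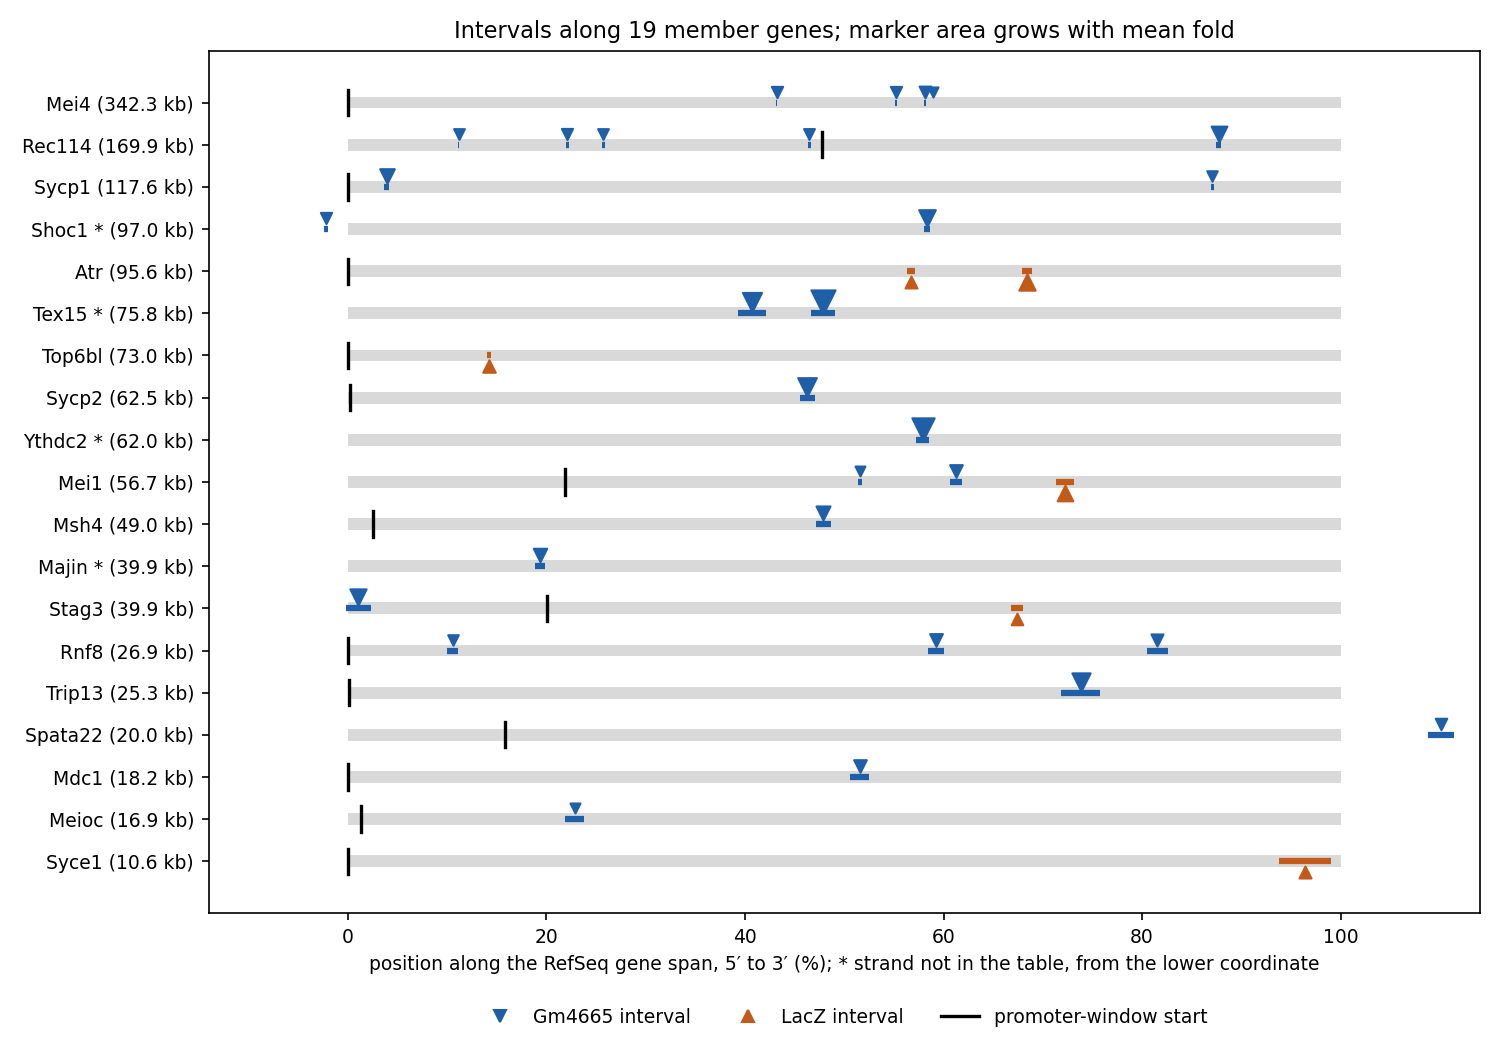
Position of the intervals along the 19 meiotic genes that had any, in percent of the RefSeq span from 5′ to 3′ (from the lower coordinate for the 4 genes marked *, whose strand is not in the table), with span lengths beside the names. Blue triangles are Gm4665 intervals and orange triangles LacZ intervals, with marker area growing with mean fold, and black bars are the starts used for promoter windows; 26 of 29 Gm4665 intervals lay inside the span, and at Rec114, Mei1 and Stag3 the start lies well inside it.

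By position, 26 of the 29 Gm4665 intervals and all 6 LacZ intervals lay wholly inside the gene span. Within 2 kb of either end of the span, Gm4665 intervals lay at 3 of 44 genes (6.82%: Stag3, Spata22 and Shoc1), against 14.2% of all protein-coding genes, and LacZ intervals at 1 (2.27%, Syce1), against 4.78%. For each of these 3 Gm4665 intervals another protein-coding gene lay within 2 kb as well. For the 23 Gm4665 intervals at genes with a known start, the median distance to it was 21.9 kb, and the 6 LacZ intervals lay 9.97 to 64.9 kb away. Exons and introns could not be separated with the table used here.

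The letters of the promoter windows were counted apart from the intervals. The median GC content was 60.0% over the 37 genes, against 56.3% over all 21263 windows, with a median of 21 CpG sites against 13. The E2F motif GGCGGGAA, searched on both strands like all motifs here, lay in the windows of 9 of 37 genes (24.3%), against 3.28% of all 17492. These were Hormad1, Mdc1, Msh5, Prdm9, Rnf212, Rnf8, Spata22, Syce2 and Tex12, and 3 of them (Mdc1, Rnf8 and Spata22) had a Gm4665 interval, beside 12 of all 37. The NRF1 motif GCGCATGCG lay in 5 (13.5%; Ccnb1ip1, Hfm1, Hormad1, Rnf212 and Syce1), against 2.61%, and none of the 5 had a Gm4665 interval. CNCCTCAG, the motif given for STRA8, a regulator of meiotic entry, lay in 8 (21.6%), against 9.86%.

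For the remaining motifs, matches were more frequent than over all genes for some and less frequent for others. CNGTTG, a MYB motif, lay in 12 of 37 (32.4%), against 37.5%. CCAAT lay in 21 (56.8%), against 42.3%, and the GC box GGGCGG, which can overlap the E2F motif, in 23 (62.2%), against 49.2%. TGACGTCA, the cyclic AMP response element, lay in 1 (2.70%), against 2.54%, and its core TGACG, which is part of it, in 12 (32.4%), against 26.2%. TATAAA lay in 2 (5.41%), against 14.8%. These matches describe letters in a window, and no test was made of them. The genes compared were not matched for GC content or CpG sites, which were higher in the windows of the 37 genes.

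**Figure D4:**
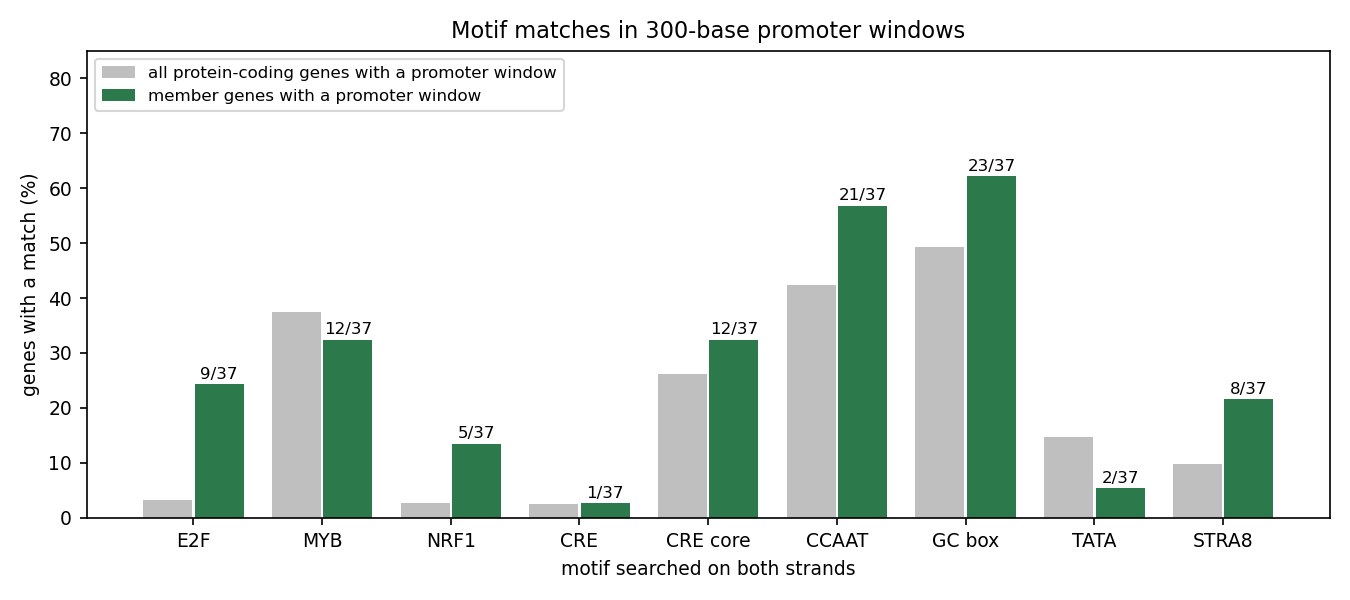
Share of genes with a match to each motif in a promoter window, on either strand, for all 17492 protein-coding genes with a window (grey) and for 37 meiotic genes (green, counts above the bars). E2F matches stand at 24.3% beside 3.28%, and NRF1 matches at 13.5% beside 2.61%, while MYB (32.4% beside 37.5%) and TATA (5.41% beside 14.8%) stand lower.

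Other genes of the same pathways were counted the same way. Of 80 found in the table, 33 (41.2%) had a Gm4665 interval and 19 (23.8%) a LacZ interval, beside 39.3% and 16.9% of all protein-coding genes. The highest mean folds with the Gm4665 probes were at Mre11a and Rad50, which encode subunits of the break-end processing complex, at Pds5a, a cohesin regulator, and at Zcwpw2 and Rnf212b. At Mre11a the folds were 43.1, 24.5 and 40.7 (mean 36.1 ± 10.1, SD, n = 3), and at Rad50 they were 40, 23.8 and 31.5 (mean 31.8 ± 8.13, SD, n = 3). Mean folds were 30.1 ± 6.48 at Pds5a, 27.6 ± 0.764 at Zcwpw2 and 26.5 ± 4.16 at Rnf212b (SD, n = 3 each). In the LacZ list Hsf2bp, Brip1 and Fignl1 had the highest means, 28.3 ± 17.5, 23.1 ± 12.0 and 20.7 ± 16.3 (SD, n = 3 each). Replicate 1 was the highest at each, with folds of 48.4, 36.8 and 39.4, as at 95.9% of the LacZ list. The Hsf2bp interval lay in the upstream flank, also within 2 kb of Rrp1b. Six6os1 (RefSeq symbol 4930447C04Rik) had the same mean as Fignl1 to the digits given, 20.7 ± 5.86 (SD, n = 3), so these did not differ beyond their spread.

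By function, Gm4665 intervals lay at 9 of 20 other repair genes, 7 of 13 other cohesin and centromere genes and 5 of 11 of damage signalling. They lay at 3 of 6 of break formation, 3 of 12 of meiotic entry and 2 of 8 of crossover formation. The synaptonemal complex and telomere attachment had 2 of 5 each. These counts stand beside 39.3% of all protein-coding genes and were not tested. Among all 17492 protein-coding genes with a promoter window, 1.76% had a Gm4665 interval over it. Of 60 other pathway genes with a window, 1 had such an interval, near that share. It was Ewsr1, which encodes a partner of PRDM9. The Ewsr1 interval, from 5098634 to 5099518 on chromosome 11, had folds of 21.5, 8.36 and 20.3 (mean 16.7 ± 7.28, SD, n = 3). It was also within 2 kb of Rhbdd3.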

How the data were processed

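The 2 deposited lists, 1 for each probe set, were used. Intervals were called with MACS2 per the file names, on mm10 per the submitters' processing notes; the aligner, the MACS2 version and settings, and how replicates were joined were not stated there. Per the file headers, the deposited columns hold a linear fold enrichment over input (a ratio) for each of 3 replicates and a pileup signal at the summit, whose replicate is not named. Library depth is unknown; the pileup at the 29 Gm4665 intervals was 15 to 121. In the Gm4665 list the replicate 1 fold most often equalled 0.341 times (pileup + 1), as at 13 of the 29 within 0.0005 as a fraction, so a difference of that size is 1 step.

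Rows that repeated an interval (649 Gm4665, 165 LacZ) were joined with the highest fold kept; none lay at the 44 genes. Intervals off chromosomes 1 to 19, X and Y (116 and 25) and 340 genes starting below 3 Mb, taken as scaffold coordinates, were left out. Gene spans came from RefSeq (GRCm38.p6), 43 of 44 by symbol and 1 by synonym; promoter windows and strand came from its sequence table. Of 82 other pathway genes, Bend2 and Redic1 were not matched. Each of the 44 genes with an interval is named with its strongest interval in each list, and distances to the nearest interval are given for the 5 longest with none. Of the other pathway genes, the 5 with the highest mean fold in the Gm4665 list and the 3 in the LacZ list are named; Six6os1 and Ewsr1 were named after their values were seen. Mean and SD are over 3 replicates. Folds were not compared between lists, which were made separately, and no test was run. The overlap counting was tested on simulated data. The genes, groups and other pathway genes were chosen with earlier results of these data known. Motifs were chosen after the lists were seen. Python 3.11.15, pandas 2.3.3, scipy 1.17.1 and matplotlib 3.10.9 were used.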

Additional observations from a re-analysis of the deposited data

How the results depend on the processing

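Genes with a Gm4665 interval numbered 15 of 44 with no flank (34.1%, against 35.0% of all protein-coding genes), 18 with a 5 kb flank (40.9%, against 45.1%) and 15 by interval midpoints (34.1%, against 38.6%). With folds of 4 or more throughout, or without LacZ overlaps, they numbered 16 (36.4%, against 38.3% and 39.1%), and with the 9448 strongest intervals 6 (13.6%, against 15.4%), since fewer intervals were searched. The LacZ count was 5 or 6 (11.4% or 13.6%, against 15.4% to 19%) under the settings run for it. Counts at gene ends followed the window, by construction: with Gm4665, 1 gene at 1 kb and 10 at 5 kb (8.37% and 27.8% of all protein-coding genes), and with LacZ 1 and 2 (3.01% and 9.14% of all). Without each replicate in turn, the median mean fold at the 44 genes was 8 to 9.50 (Gm4665; 8.66 with all 3) and 7.42 to 10.5 (LacZ; 8.97). Keeping the first of repeated rows changed no value at these genes. Without Rec114 there were 11.0 Gm4665 intervals per Mb, and without Atr 1.78 LacZ intervals per Mb, against 2.56. No paired analysis was possible because no result comes from a test and the folds of the 2 lists cannot be set against each other. The intervals themselves stayed fixed when a replicate was left out, because the lists give no calls per replicate. With 3 replicates and no read counts, a gene without an interval may hold signal below the threshold of the list.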

Other observations

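Of the 28 genes without a Gm4665 interval, 5 (17.9%) had the nearest within 10 kb, against 22.7% of the 13215 protein-coding genes without one. These were Mlh3, Rnf212, Terb1, Msh5 and Tex12. The nearest had mean folds of 7.69 at Mlh3, 9.79 at Rnf212 (4088 bp away), 13.7 at Terb1, 24.4 at Msh5 (5515 bp) and 11.4 at Tex12 (9296 bp). Over the 28 genes the median distance was 27.0 kb, against 23.7 kb over the 13215, and the farthest was 52.6 kb, at Hormad1.

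For 7 of the 37 genes with a promoter window, the start used for it lay over 1 kb inside the boundary of the RefSeq span. At Rec114 the difference was 81147 bp, at Mei1 12402 bp, at Stag3 7995 bp and at Spata22 3181 bp. An interval counted at the end of such a gene, as at Stag3, can lie several kb from that start.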
